A study of Mus musculus with 4 samples.

Results

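The genes described here are 48 components and regulators of mitosis: the transcription factor FOXM1, mitotic kinases and cyclins, spindle motors, kinetochore and checkpoint proteins, cytokinesis factors and proteins of the mitotic chromosome. They were taken by gene symbol from a deposited table of 51826 genes, and each symbol matched 1 row. All 48 were among the 16734 genes that passed the filter on low counts, a mean of at least 10 counts over the libraries, and the lowest single value of any member was 35 counts.

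RNA was sequenced from dermal papilla cells (DPCs), the mesenchyme at the base of the hair follicle, and from dermal sheath cells (DSCs), the mesenchyme that wraps it. Both were cultured from vibrissa follicles of mice 5 to 6 weeks old, which the methods call EGFP-transgenic C57BL/6J and the labels give the genotype WT. Cells at passage 3 (low passage) and passage 9 (high passage) were compared, with no other treatment, to look for expression differences that go with how well the cells home to follicles. Each of the 4 groups was 1 library from 1 culture, so differences between libraries cannot be told apart from differences between cultures, and no difference between passages or cell types was tested here. How many mice were pooled for a culture is not given in the sources used here, and the labels and the methods name different library kits.

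A cell that divides switches on this set of genes late in the cycle. Cyclin B with CDK1 drives entry into mitosis, Polo-like kinase 1 (PLK1) and the Aurora kinases build and regulate the spindle, and the spindle checkpoint holds the anaphase-promoting complex (APC/C) with its activator CDC20 until every chromosome is attached. In G1 and in resting cells the DREAM complex represses many of these genes, and in G2 the MuvB core with B-MYB and FOXM1 activates them. In skin, dermal papilla cells seldom divide in the resting follicle, while cells put in culture do.

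The DPC libraries held 35340038 counts at passage 3 and 34981284 at passage 9, and the DSC libraries 38780425 and 47604059. Levels are given as CPM, counts scaled to a common library size with TMM, which also corrects for composition, and changes as log2 ratios. The 95% intervals beside them are exact Clopper-Pearson intervals from the counts of the libraries compared, and they cover counting error only. Of 9 dermal papilla markers, Sox2 had 1677 and 1491 counts in DPCs against 269 and 178 in DSCs, and Lef1 had 508 and 2 counts in DPCs against 101 and 55 in DSCs. Ncam1 was higher in DSCs, with 3642 and 1673 counts in DPCs against 11755 and 15584. Of the 6 papilla markers that passed the filter, 3 were higher and 3 lower in DSCs at each passage. Summed papilla markers held 161 and 95.3 CPM in DPCs against 323 and 351 CPM in DSCs. Wif1 was at 0 in every library, and Alpl, the gene of alkaline phosphatase, had 6 to 23 counts. Summed fibroblast, dermal sheath, immune and endothelial markers were lower at passage 9, but not every single marker was. In DPCs, summed fibroblast markers went from 18700 to 7310 CPM and summed dermal sheath markers from 9430 to 3490 CPM. The DSC sums went from 27600 to 22700 CPM and from 7480 to 6510 CPM. By gene, 7 of 8 fibroblast and 4 of 5 sheath markers were lower in DPCs, with median log2 changes of -1.4 and -1.69. In DSCs only 4 of 8 and 2 of 5 were lower, with medians of -0.01 and 0.99. Itga8, a sheath marker, rose by 2.38 in DPCs and by 3.53 in DSCs. Pdgfra, a fibroblast marker, rose by 1.42 and by 1.14. Summed immune markers (4 of 6 with at least 10 counts in each library) went from 21.3 to 9.06 CPM in DPCs and from 32.9 to 14.1 CPM in DSCs, and Cd3e was at 0. Summed endothelial markers went from 2.42 to 0.111 CPM in DPCs and from 5.48 to 0.987 CPM in DSCs. The 7 Schwann and melanocyte markers summed to 17.9 and 31.0 CPM in DPCs and to 34.7 and 14.9 CPM in DSCs, and Ngfr among them went from 144 and 544 counts at passage 3 to 0. Of 7 keratinocyte markers, 4 (Krt5, Krt14, Krt15 and Cdh1) were at 0 in every library. The part of these markers in the members' differences was not tested.

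Together the members held 2430 CPM at passage 3 and 649 CPM at passage 9 in DPCs, against 2100 and 1010 CPM in DSCs. The sum was thus 3.74-fold lower at high passage in DPCs and 2.08-fold lower in DSCs. In these bulk RNA samples, fewer dividing cells and less mitotic RNA per cell cannot be told apart. For 46 of the 48 members both high-passage libraries lay below both low-passage libraries, which was so for 27.2% of all tested genes. The 2 exceptions were Gtse1 and Psrc1. The order from high-passage DPCs (lowest) through high-passage and low-passage DSCs to low-passage DPCs (highest) was seen for 41 members and for 13.0% of all tested genes.

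**Figure D1:**
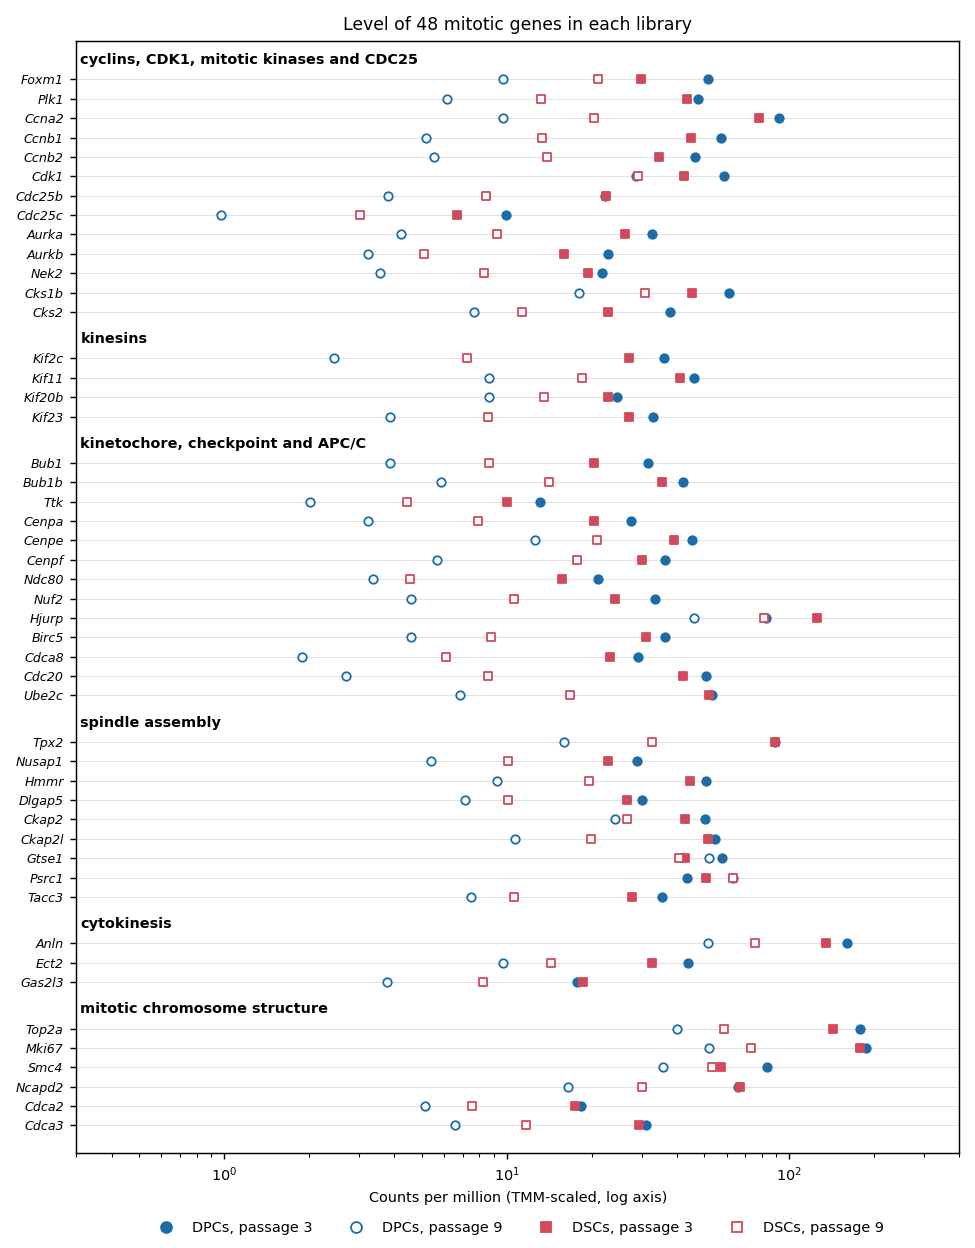
Points give the CPM (TMM-scaled, log axis) of each of the 48 members, grouped by role, in the 4 libraries (1 library per group, no error bars). High-passage DPCs are the lowest point for 46 members, beside 33.9% of all tested genes, and Gtse1 and Psrc1 are the exceptions.

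The first question was which members changed with passage in DPCs, with a change of at least 4-fold counted as a call. In DPCs, 36 of the 48 members were called lower at passage 9, beside 4.36% of all tested genes, and none was called higher, beside 5.58%. The members' median log2 change was -2.43 (SD 0.90 over the members, range -4.20 to 0.54), against 0.03 over all tested genes. The counting interval lay below 0 for 47 members and above 0 for 1, Psrc1. Near the threshold, Dlgap5 at -2.07 and Ncapd2 at -2.0 were just inside, and Cenpe and Mki67, both at -1.84, just outside.

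In DSCs the same direction was seen with smaller sizes. Cdc20 alone was called lower, beside 1.16% of all tested genes, and none was called higher, beside 2.67%. It was also the 1 member called in both cell types, beside 0.508% of all tested genes. The members' median log2 change was -1.22 (SD 0.51, range -2.28 to 0.32), against 0.00 over all tested genes. By a 2-fold rule, 36 members were lower in DSCs, beside 6.21% of all tested genes, and 45 were lower in DPCs, beside 15.0%. By that rule no member was higher in either cell type, beside 16.1% of all tested genes in DPCs, 8.55% in DSCs and 4.86% in both. The 36 were at least 2-fold lower in both cell types, which held for 3.54% of all tested genes. Just outside 4-fold in DSCs were Ccna2 at -1.93 and Cdca8 at -1.92. The study listed Cdc20 among the genes lower at high passage and named FOXM1 and PLK1 pathways, both from these same libraries, so these counts are not independent evidence of a direction.

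**Figure D2:**
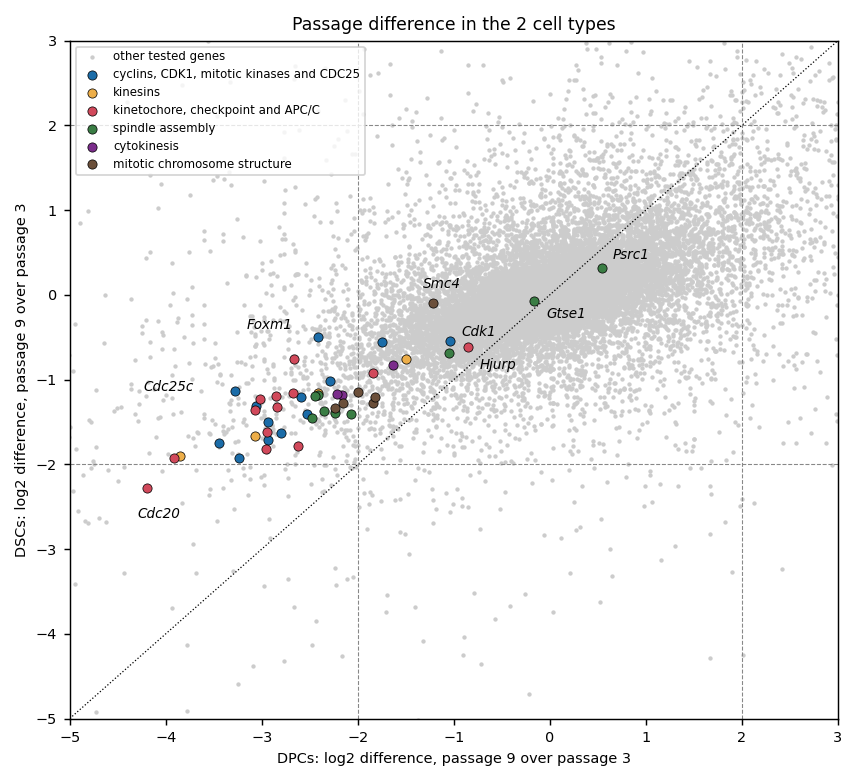
Each coloured point is a member, with its log2 difference between passage 9 and passage 3 in DPCs on the x axis and in DSCs on the y axis, and grey points are the other tested genes within the axis limits. The members lie mostly between -4.20 and -1 in DPCs and are nearer to 0 in DSCs, with Psrc1 above 0 on both axes.

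For each role group, the shares of all tested genes to set beside its counts are those above. They were 4.36% called lower in DPCs, 1.16% called lower in DSCs and 6.21% at least 2-fold lower in DSCs. Among FOXM1, the cyclins, CDK1, the mitotic kinases and the CDC25 phosphatases, 11 of 13 members were called lower in DPCs and none in DSCs, where 10 were at least 2-fold lower. Their median log2 changes were -2.80 in DPCs and -1.31 in DSCs. Foxm1 (ENSMUSG00000001517, chromosome 6, 128362967 to 128376146, GRCm38), the transcription factor that activates late cell cycle genes, went from 51.5 to 9.67 CPM between passages in DPCs and from 29.9 to 21.1 CPM in DSCs. High-passage DPCs were the lowest of the 4 libraries, and low-passage DPCs the highest. Its log2 change was -2.41 (-2.58 to -2.25) in DPCs and -0.50 (-0.63 to -0.38) in DSCs. Its DPC change was smaller in the deposited FPKM, a level per length of transcript, which went from 12.1 to 3.91 and did not pass 4-fold. Plk1 (chromosome 7, 122159439 to 122169873) had 47.5 CPM at passage 3 and 6.13 CPM at passage 9 in DPCs, with 43.5 and 13.2 CPM in DSCs. The 2 low-passage libraries were close and the high-passage libraries lay apart, with log2 changes of -2.94 (-3.16 to -2.75) in DPCs and -1.71 (-1.85 to -1.58) in DSCs. The near copy Plk-ps1, the main other gene to hold 50-base windows of Plk1, had 34 and 101 counts in DPCs and 37 and 56 counts in DSCs, so reads could be shared between them.

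Ccna2, cyclin A2, had 92.2 CPM in low-passage and 9.73 CPM in high-passage DPCs, and 77.9 and 20.3 CPM in the DSC libraries. Ccnb1, cyclin B1 (chromosome 13, 100778650 to 100786570), went from 57.2 to 5.18 CPM in DPCs and from 44.9 to 13.3 CPM in DSCs. The cyclins differed more with passage than their kinase. Cdk1 (chromosome 10, 69335146 to 69352938) had 58.8 CPM in low-passage DPCs and 28.6 CPM in high-passage DPCs, with 42.3 and 29.1 CPM in DSCs, log2 changes of -1.04 (-1.15 to -0.93) and -0.54 (-0.64 to -0.43). For Ccnb1 the changes were -3.45 (-3.69 to -3.25) and -1.75 (-1.89 to -1.62). The Ccnb1 change minus the Cdk1 change was -2.43 (-2.68 to -2.18) in DPCs and -1.22 (-1.39 to -1.04) in DSCs, a pair chosen after its values were seen. Per length of transcript, the ratio of Ccnb1 to Cdk1 FPKM went from 1.44 to 0.229 in DPCs and from 1.56 to 0.654 in DSCs. Of the exonic 50-base windows of Ccnb1, 23.4% also occur in other genes, mainly Ccnb1-ps, so its reads could be shared with that copy.

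The phosphatases CDC25B and CDC25C remove the inhibitory phosphates from CDK1. Cdc25c, the member with the fewest counts, had 366 counts in low-passage and 35 in high-passage DPCs, and 253 and 138 counts in DSCs. Its log2 change was -3.28 (-3.89 to -2.85) in DPCs, a call, and -1.13 (-1.45 to -0.83) in DSCs. The CDK-binding subunits Cks1b and Cks2 were less alike: Cks2 was called lower in DPCs at -2.29, Cks1b was not at -1.75, and in DSCs they were at -1.02 and -0.55. Of the exonic windows of Cks2, 29.7% also occur in other genes, mainly Gm15452, which had 6 to 18 counts itself. Aurka and Aurkb, the Aurora kinases of the spindle pole and of the inner centromere, changed by -2.94 and -2.80 in DPCs and by -1.50 and -1.63 in DSCs, and the difference between the pair was within counting error in both cell types.

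Of the 4 kinesins, 3 were called lower in DPCs. Kif2c, whose protein MCAK takes apart microtubule ends at the centromere, had 36.0 CPM in low-passage and 2.45 CPM in high-passage DPCs, and 27.2 and 7.24 CPM in DSCs. Its log2 change was -3.85 (-4.20 to -3.56) in DPCs and -1.90 (-2.09 to -1.73) in DSCs. Kif23, a motor of the central spindle, went from 33.0 to 3.87 CPM in DPCs and from 27.2 to 8.60 CPM in DSCs. Kif20b was the kinesin that differed least, with 24.5 and 8.67 CPM in DPCs and 22.9 and 13.5 CPM in DSCs, a log2 change of -1.50 (-1.69 to -1.31) in DPCs. The fourth kinesin, Kif11, the motor that pushes the spindle poles apart, lay between these at -2.41 in DPCs and -1.16 in DSCs.

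Kinetochore, checkpoint and APC/C members included the one with the lowest log2 change in each cell type, Cdc20. Of these 13, 11 were called lower in DPCs, with a median of -2.85, and 10 were at least 2-fold lower in DSCs, with a median of -1.32. The kinesin median was lower in DSCs, at -1.41, and higher in DPCs, at -2.74. Cdc20 (chromosome 4, 118432901 to 118437352), the APC/C activator that the checkpoint inhibits, had 1863 counts at passage 3 and 97 at passage 9 in DPCs, and 1597 and 392 counts in DSCs. These are 50.6, 2.70, 42.1 and 8.60 CPM, or 18.4-fold lower at high passage in DPCs and 4.87-fold lower in DSCs. The log2 changes were -4.20 (-4.54 to -3.93) and -2.28 (-2.45 to -2.13). The near copy Gm7856, in which part of the 10.4% of shared windows lie, had at most 1 count.

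Cdca8 encodes borealin, a subunit of the chromosomal passenger complex with Aurora B and survivin (Birc5). It had 29.2 CPM in low-passage and 1.89 CPM in high-passage DPCs, and 23.3 and 6.12 CPM in DSCs. The log2 change was -3.91 (-4.32 to -3.59) in DPCs and -1.92 (-2.13 to -1.73) in DSCs. Its change minus that of Aurkb, a pair set side by side after the values were seen, was -1.13 (-1.60 to -0.66) in DPCs, while in DSCs the value of -0.29 had an interval that held 0.

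Hjurp, the chaperone that places the centromeric histone CENP-A, stood apart in this group. It had 82.5 CPM in low-passage and 45.9 CPM in high-passage DPCs, and 125 and 81.4 CPM in DSCs, a log2 change of -0.85 (-0.93 to -0.76) and -0.62 (-0.68 to -0.56). Its client Cenpa had 1012 and 116 counts in DPCs and 771 and 360 in DSCs, changes of -3.07 and -1.36. The Cenpa change minus the Hjurp change was -2.24 (-2.55 to -1.95) in DPCs and -0.74 (-0.94 to -0.55) in DSCs. Ndc80 and Nuf2, which bind each other in the complex that holds the microtubule, differed by less than counting error in DPCs, at -2.62 and -2.85. In DSCs Nuf2, at -1.19, was less reduced than Ndc80, at -1.78, by 0.60 (0.31 to 0.88). Both these pairs were chosen after their values were seen.

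Of the 9 spindle assembly members, 6 were called lower in DPCs and 6 were at least 2-fold lower in DSCs, and this group held the exceptions. Tpx2, which activates Aurora A on the spindle, had 88.7 CPM in low-passage and 15.9 CPM in high-passage DPCs, and 89.3 and 32.7 CPM in DSCs. Ckap2l, a spindle pole protein, went from 54.6 to 10.7 CPM in DPCs and from 51.6 to 19.9 CPM in DSCs. Psrc1 (chromosome 3, 108383839 to 108388231), a microtubule-binding protein of the spindle, was the member with a higher level at high passage. It went from 43.6 to 63.3 CPM in DPCs and from 50.7 to 63.4 CPM in DSCs. Both high-passage libraries thus lay above both low-passage libraries, with log2 changes of 0.54 (0.44 to 0.63) and 0.32 (0.24 to 0.41), which are under 2-fold. Gtse1, a microtubule-tip protein that also restrains p53, had 58.0 and 51.8 CPM in DPCs and 42.7 and 40.6 CPM in DSCs. Its log2 change was -0.16 (-0.26 to -0.07) in DPCs, and in DSCs the value of -0.07 had an interval from -0.17 to 0.02. Ckap2, another microtubule protein, changed by -1.05 in DPCs and by -0.68 in DSCs. Psrc1 held 42.2 FPKM in high-passage DPCs, the highest of any member in that library, while the members' median FPKM there was 2.87.

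The cytokinesis members were Anln, Ect2 and Gas2l3. Ect2, an exchange factor needed to form the cleavage furrow, had 43.8 and 9.73 CPM in DPCs and 32.8 and 14.4 CPM in DSCs, with log2 changes of -2.16 (-2.34 to -2.0) and -1.18 (-1.32 to -1.05). Gas2l3, which links actin and microtubules, changed by -2.22 and -1.17. Anln, the contractile ring scaffold anillin, was the most abundant of the 3 and differed least, from 160 to 51.7 CPM in DPCs and from 135 to 75.8 CPM in DSCs, changes of -1.63 and -0.83.

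Among the 6 genes of the mitotic chromosome, 3 were called lower in DPCs, Top2a, Ncapd2 and Cdca3. Top2a, the topoisomerase that untangles sister chromatids, had 178 and 40.1 CPM in DPCs and 143 and 58.8 CPM in DSCs, changes of -2.15 and -1.28. Mki67, the proliferation marker Ki-67 that coats mitotic chromosomes, had 187 and 52.0 CPM in DPCs and 178 and 73.1 CPM in DSCs, changes of -1.84 and -1.28. Cdca3, which targets the CDK1 inhibitor WEE1 for destruction, changed by -2.24 and -1.33. Smc4 and Ncapd2 are subunits of condensin. Smc4 had 83.2 and 35.6 CPM in DPCs but 57.2 and 53.4 CPM in DSCs, so its log2 change was -1.22 (-1.32 to -1.13) in DPCs and -0.10 (-0.18 to -0.02) in DSCs. Ncapd2 changed by -2.0 in DPCs and by -1.15 in DSCs, so Ncapd2 minus Smc4 was -0.78 (-0.94 to -0.62) and -1.05 (-1.18 to -0.93), a pair also chosen after its values were seen.

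The study also set DPCs beside DSCs, and the members' passage changes differed in size between the 2 cell types. All 48 members had a smaller absolute change in DSCs. The DSC change was above the DPC change for 47 members, beside 50.6% of all tested genes, with a median difference of 1.19 on the log2 scale against 0.01 over all tested genes. The difference was at least 2-fold for 30 members, beside 12.3% of all tested genes. Among the 36 members at least 2-fold lower in both cell types, the DSC log2 change was 0.54 of the DPC log2 change at the median. Across the 48 members the DPC and DSC changes had a Pearson correlation of 0.87 and a Spearman rank correlation of 0.75, against 0.47 and 0.52 over all tested genes, a description across genes, which are not independent.

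The members with the greatest differences were Cdc25c at 2.16 (1.61 to 2.84), Cdca8 at 1.99 (1.60 to 2.44), Kif2c at 1.94 (1.60 to 2.34), Cdc20 at 1.92 (1.60 to 2.29) and Foxm1 at 1.90 (1.70 to 2.12). Cenpf, a kinetochore protein of the outer plate, had the same rounded difference as Foxm1, from 36.2 to 5.68 CPM in DPCs and from 30.1 to 17.8 CPM in DSCs. By role, the median difference was 1.52 for kinetochore, checkpoint and APC/C members, 1.33 for kinesins and 1.30 for kinases and cyclins. It was 0.98 for cytokinesis, 0.86 for the mitotic chromosome and 0.85 for spindle assembly. Psrc1 alone had a difference below 0, at -0.21 (-0.34 to -0.09), since it was higher by more in DPCs, and Gtse1 at 0.09 had an interval that held 0.

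**Figure D3:**
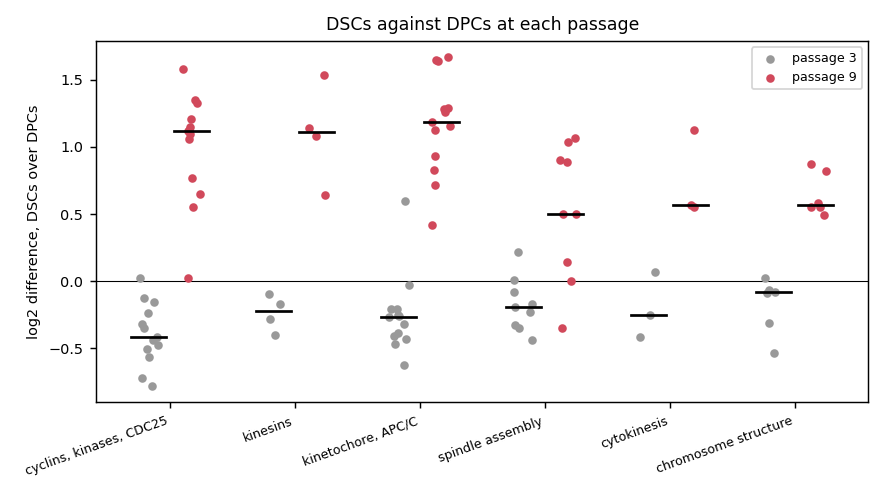
Points are members by role, with the log2 ratio of DSCs to DPCs on the y axis at passage 3 and at passage 9, and bars are medians of the role group (1 library per group). The medians lie below 0 at passage 3 and above 0 at passage 9 in every role group.

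At passage 3 the 2 cell types were close, and no member differed 2-fold, beside 5.43% of all tested genes lower and 7.86% higher in DSCs. The median log2 ratio of DSCs to DPCs was -0.26 (range -0.78 to 0.60), with 42 members lower in DSCs. The 4-fold background at passage 3 was 1.52% of all tested genes lower and 2.77% higher in DSCs. Foxm1 at -0.78 (-0.89 to -0.68) and Cks2 at -0.72 (-0.84 to -0.59) were the lowest in DSCs, and Hjurp at 0.60 (0.54 to 0.67) was the highest. Counting intervals held 0 for 9 members.

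At passage 9 the order was turned. The median log2 ratio of DSCs to DPCs was 0.99 (range -0.35 to 1.67), and 47 members were at or above 0. DSCs were at least 2-fold higher for 24 members, beside 11.0% of all tested genes, and 4-fold higher for none, beside 3.91%. None was lower in DSCs by 2-fold or by 4-fold, beside 9.11% and 2.5%. Cdca8 at 1.67 (1.30 to 2.10), Cdc20 at 1.65 (1.35 to 2.01) and Cenpf at 1.64 (1.42 to 1.88) were the highest. Foxm1 was at 1.12 (0.95 to 1.31). Cdk1, at 0.02 (-0.09 to 0.14), and Psrc1, at 0.00 (-0.08 to 0.08), did not differ beyond counting error, and Gtse1 was the member lower in DSCs, at -0.35 (-0.45 to -0.26). Summed over the members, DSCs held 1.56-fold more member RNA than DPCs at passage 9, and DPCs 1.16-fold more than DSCs at passage 3.

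Other mitotic genes outside the 48 followed a like course. Of 50 such genes, 48 were tested, and Sgo1 and Sgo2a were not matched by symbol. In DPCs, 21 were called lower, beside 4.36% of all tested genes, with a median log2 change of -1.91. In DSCs none was called lower, beside 1.16%, 32 were at least 2-fold lower, beside 6.21%, and the median was -1.13. Kif20a, the kinesin of the cleavage furrow, went from 74.0 to 10.9 CPM in DPCs and from 61.3 to 27.5 CPM in DSCs. Cdkn3, a phosphatase that acts on cyclin-dependent kinases, had the greatest difference between the cell types, at 2.36 (1.73 to 3.17). In 5 of the 48 the DSC change was below the DPC change, and Arhgap11a was the one past 2-fold in that direction, going from 31.8 to 27.3 CPM in DPCs and from 45.3 to 15.9 CPM in DSCs. These 3 were named after their values were seen.

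Genes of the DREAM and MuvB complexes and of the CCAAT-binding factor NF-Y differed less. Of 14, the median was -0.26 in DPCs and -0.28 in DSCs. Mybl2, which encodes B-MYB, was called lower in DPCs, from 654 to 84 counts, a log2 change of -2.90 (-3.27 to -2.59), and had 531 and 219 counts in DSCs, a change of -1.53. Rbl2, which encodes the DREAM pocket protein p130, was higher at high passage, from 49.4 to 126 CPM in DPCs and from 53.4 to 88.8 CPM in DSCs, changes of 1.34 (1.27 to 1.42) and 0.73 (0.66 to 0.81). A list of 15 APC/C genes, 14 subunits and the activator Fzr1 (CDH1), had medians of 0.01 and -0.05, and none passed 2-fold in either cell type. These 15 genes lay between -0.76 and 0.30 in DPCs, with Fzr1 at -0.26, while the other activator, Cdc20, was at -4.20 and the ubiquitin-conjugating enzyme Ube2c at -2.95.

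**Figure D4:**
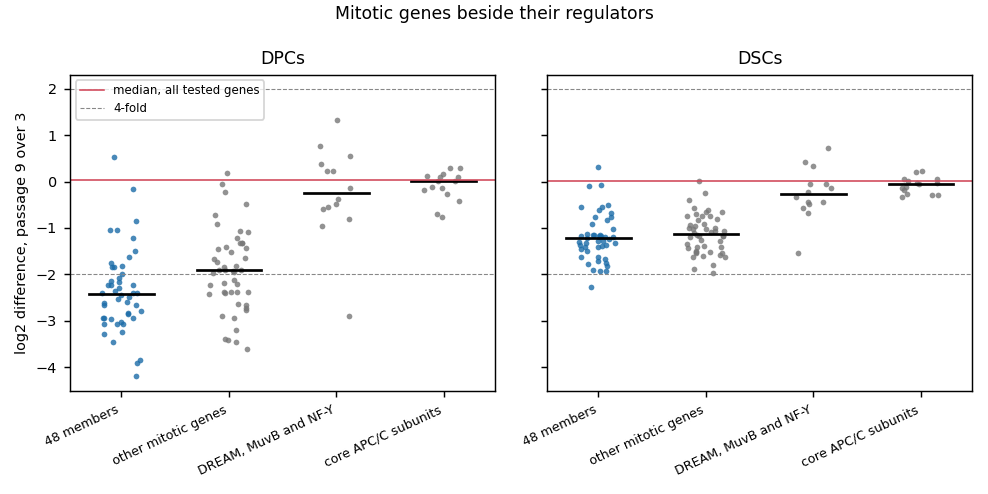
Points are genes of the 4 lists, with the log2 difference between passage 9 and passage 3 on the y axis for DPCs (left) and DSCs (right), black bars are list medians and the red line is the median of all tested genes. In each panel 47 of the 48 members and 47 of the 48 other mitotic genes lie below 0. Their medians are -2.43 and -1.91 in DPCs, while the 15 APC/C genes, which include the activator Fzr1, are centred at 0.01.

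Many of the members also share promoter elements. They were listed as mitotic genes and FOXM1 targets, so the share of such elements is not independent of how they were chosen. Mitotic genes are known for CCAAT boxes, bound by NF-Y, and for the cell cycle genes homology region (CHR), bound by DREAM and by the MuvB activators. RefSeq windows (GRCm38.p6) from 250 bases before to 50 bases after the start site were found for 40 of the 48 members. Windows were not used for Foxm1, Ccna2, Cdc25c, Aurkb, Tpx2, Dlgap5, Smc4 and Cdca2. The sequences shown are those of a kinase, both B-type cyclins, CDK1, the APC/C activator and, added after its values were seen, Psrc1, the member that was higher. Capitals mark CCAAT, which reads ATTGG when it lies on the other strand, and the CHR letters TTTGAA or TTCGAA, all 5′ to 3′ on the gene's strand.
Plk1 (chr7:122159185-122159484, plus strand): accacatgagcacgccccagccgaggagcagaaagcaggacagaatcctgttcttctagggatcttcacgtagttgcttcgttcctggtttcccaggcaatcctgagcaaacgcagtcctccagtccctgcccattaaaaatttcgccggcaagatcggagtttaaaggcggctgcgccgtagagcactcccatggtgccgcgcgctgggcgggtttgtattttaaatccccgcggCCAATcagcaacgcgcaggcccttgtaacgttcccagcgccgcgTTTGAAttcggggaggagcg
Ccnb1 (chr13:100786437-100786736, minus strand): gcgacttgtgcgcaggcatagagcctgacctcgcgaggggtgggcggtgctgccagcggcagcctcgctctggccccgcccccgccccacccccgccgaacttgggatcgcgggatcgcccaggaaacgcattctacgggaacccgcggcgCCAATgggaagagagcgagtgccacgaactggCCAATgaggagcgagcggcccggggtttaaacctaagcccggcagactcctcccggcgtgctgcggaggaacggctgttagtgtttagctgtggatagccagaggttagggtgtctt
Ccnb2 (chr9:70421505-70421804, minus strand): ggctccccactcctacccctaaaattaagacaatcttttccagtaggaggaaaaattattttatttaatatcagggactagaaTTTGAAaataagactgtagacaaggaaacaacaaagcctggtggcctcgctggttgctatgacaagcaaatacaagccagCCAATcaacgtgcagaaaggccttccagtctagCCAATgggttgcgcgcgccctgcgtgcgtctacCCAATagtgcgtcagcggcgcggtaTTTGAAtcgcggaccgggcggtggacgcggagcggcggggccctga
Cdk1 (chr10:69352863-69353162, minus strand): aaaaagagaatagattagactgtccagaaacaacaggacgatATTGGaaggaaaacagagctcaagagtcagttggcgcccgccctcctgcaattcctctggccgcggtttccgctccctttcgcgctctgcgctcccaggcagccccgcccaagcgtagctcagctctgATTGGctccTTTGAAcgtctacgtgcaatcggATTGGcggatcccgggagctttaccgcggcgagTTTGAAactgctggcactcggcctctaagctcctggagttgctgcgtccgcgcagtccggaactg
Cdc20 (chr4:118437294-118437593, minus strand): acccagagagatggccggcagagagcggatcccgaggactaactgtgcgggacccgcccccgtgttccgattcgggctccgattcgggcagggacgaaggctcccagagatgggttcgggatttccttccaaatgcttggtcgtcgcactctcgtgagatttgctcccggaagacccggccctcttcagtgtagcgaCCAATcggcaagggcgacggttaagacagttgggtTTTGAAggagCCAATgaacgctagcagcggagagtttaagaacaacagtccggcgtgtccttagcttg
Psrc1 (chr3:108383554-108383853, plus strand): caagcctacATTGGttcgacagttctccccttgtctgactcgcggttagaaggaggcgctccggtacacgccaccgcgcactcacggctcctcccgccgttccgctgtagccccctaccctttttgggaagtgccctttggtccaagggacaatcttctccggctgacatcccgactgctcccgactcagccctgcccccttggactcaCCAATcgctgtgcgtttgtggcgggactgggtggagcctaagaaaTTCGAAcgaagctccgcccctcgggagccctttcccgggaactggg

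In the 150 bases from 100 before to 50 after the start, CCAAT was found on either strand in 29 of 40 member windows, 72.5% (exact 95% interval 56.1 to 85.4), and in 24.0% of all 27025 windows. The CHR letters were in 28 windows, 70.0% (53.5 to 83.4), against 8.68% of all windows. Both elements were in 22 member windows, 55.0% (38.5 to 70.7), against 2.09%. The 2 motifs share no letters that could make 1 match count for both. A forkhead core, GTAAACA, was found in 0 member windows and in 1.55% of all windows, and the E2F letters TTCCCGC in 0 and in 2.61%, with an exact 95% interval up to 8.81% for 0 of 40. Over the whole 300 bases the shares were 80.0% for CCAAT, 77.5% for the CHR letters and 67.5% for both, against 37.9%, 19.4% and 7.70% of all windows. In that window GTAAACA was in 2 of 40 member windows, 5.0% (0.611 to 16.9) against 3.55% of all windows, and TTCCCGC in 0 against 4.66%. A match is a run of letters and not a site shown to be bound.

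CHR letters sat close to the start: 30 of 43 matches lay within 50 bases of it, with a median position of 2. CCAAT lay further upstream, at a median of -68, and 41 of 80 matches were between 100 and 20 bases before the start. The letters did not divide the members by their passage change. Members with the CHR letters in the 150 bases had a median log2 change of -2.49 in DPCs (28 genes) and members without them -2.35 (12 genes), and in DSCs the medians were -1.28 and -1.18. For CCAAT the medians were -2.45 and -2.41 in DPCs and -1.21 and -1.28 in DSCs. Psrc1, which was not lower, and Cdk1, which was lower by less than most, held both elements. Ccnb1, one of the most reduced, held CCAAT but neither TTTGAA nor TTCGAA, and no other spelling of the CHR was searched.

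**Figure D5:**
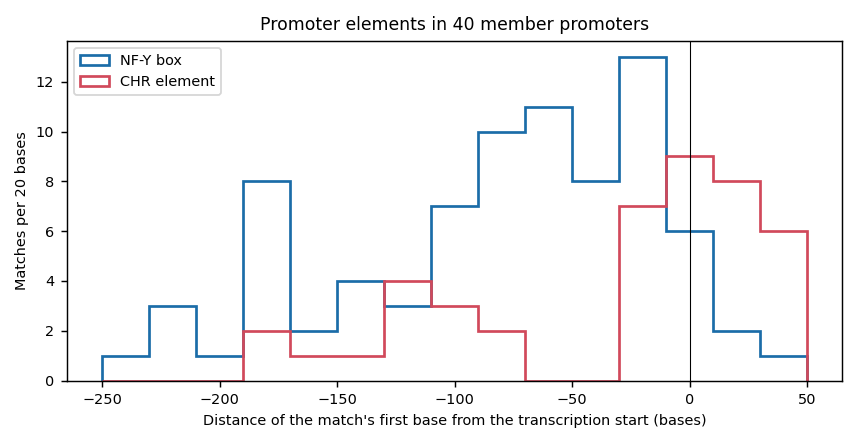
Step lines count matches per 20 bases by the distance of their first base from the transcription start (x axis, bases) for NF-Y boxes and CHR letters in the 40 member windows. NF-Y boxes are most frequent upstream of the start, with a median of -68, and CHR letters around it, with a median of 2.

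Counting could be shared between genes for some members, since the sources used here do not say whether strand was used. On either strand, 14 members have exons that overlap another gene, up to 22.8% of exonic bases for Ube2c, and 3 members (Ccnb1, Cks2 and Cdc20) have more than 10% of their 50-base windows in other genes. Among the 32 members with neither, 20 were called lower in DPCs and 21 were at least 2-fold lower in DSCs.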

How the data were processed

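The authors deposited raw gene counts for the 4 libraries in 1 table and FPKM values, which are scaled to transcript length and library size, in a file per library. The submitters' processing notes name Bowtie 0.12.2 and the builds mm8 and mm9, whereas the positions in the table match GRCm38 for 45 of the 48 members. The gene counter, its strand setting and whether both mates of a pair were counted are not given in the sources used here.

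Counts were scaled with TMM factors in edgeR 4.0.16 (R 4.3.3) over genes with a mean of at least 10 counts, and log2 ratios used a prior count of 2. With 1 library per group nothing was tested, and a change of at least 4-fold was counted as a call. Clopper-Pearson intervals (scipy 1.17.1) compare libraries, not conditions, and for the difference between cell types exact conditional intervals of the odds ratio were used. Total counts of 34981284 to 47604059 gave members 35 to 6875 counts per library. Alternatives used DESeq2 1.42.0 size factors, total counts, upper quartiles, other prior counts and filters, the deposited FPKM and halved counts. The scripts were tested on simulated data.

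The members and gene lists were chosen with earlier results of these data known. Genes named in full were Foxm1, Plk1, for each role the 2 members with the lowest and the 1 with the highest mean change, members not lower in both cell types, the 5 with the greatest difference between cell types, members with a mean under 100 counts (none), and, of the other lists, genes past 4-fold in both cell types (none) or 2-fold higher in either. Any other gene was named after its values were seen. Promoter windows were searched on both strands, the first listed window per gene.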

Additional observations from a re-analysis of the deposited data

Results flagged for a closer look

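Among the members and the 3 gene lists set beside them (cell type markers not included), 2 genes had passage changes of opposite sign in DPCs and DSCs with counting intervals on opposite sides of 0, a difference that was not tested because each group had 1 library. Nfya, the subunit of NF-Y that recognises the CCAAT box, was higher by 0.39 on the log2 scale at high passage in DPCs and changed by -0.33 in DSCs. Anapc16, a small APC/C subunit, was higher by 0.29 in DPCs and changed by -0.11 in DSCs. Both are under 2-fold in each cell type, and with counts halved the Anapc16 interval in DSCs, -0.26 to 0.03, held 0. Other listed genes changed sign with an interval that reached 0 in at least 1 cell type, such as Pttg1 at 0.18 (0.00 to 0.36) and -0.39 (-0.58 to -0.21).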

How the results depend on the processing

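Every member kept the direction of its passage change in both cell types over the 10 settings tried, and no result reversed. Of 864 recomputed member values, 774 stayed within the counting interval and 90 did not, 21 with FPKM + 0.1 and 69 with FPKM + 1, where the added 1 shrinks ratios of low levels. With FPKM + 1 the median log2 change was -1.93 in DPCs and -1.05 in DSCs, the median difference between cell types was 0.89 and the median ratio of DSCs to DPCs at passage 9 was 0.57. In that setting 22 members were called lower in DPCs and 16 differed at least 2-fold between cell types. With FPKM + 0.1, 31 of the 36 members called lower in DPCs remained, without Foxm1, Dlgap5, Ect2, Top2a and Ncapd2, and the cause was not tested. Leaving out members with shared windows or overlapping exons, an alternative chosen after seeing the data, left 32 members, of which 20 were called lower in DPCs, 0 in DSCs (Cdc20 was left out) and 18 differed at least 2-fold between cell types. The 2-fold rule gave 36 members lower in DSCs and 24 higher in DSCs than in DPCs at passage 9.

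With counts halved, as if both mates had been counted, the interval lay below 0 for 45 members in DSCs instead of 46. No paired analysis was possible because each group had 1 library and the groups shared fewer than 2 replicate numbers. For the same reason no library could be left out. Counting intervals were wide for the scarcest members, such as Cdc25c with 35 counts. They also held 0 for abundant members with small changes in DSCs, such as Gtse1 and, with counts halved, Smc4 (-0.22 to 0.02). The spread between cultures is unknown.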
